A study of Homo sapiens with 9 samples.

Results

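The genes described here are FUCA1, MANBA, GLB1, GALC, AGA, ARSA, ARSB and GM2A, which encode lysosomal glycosidases, an amidase that acts on glycoprotein remnants, sulfatases and the GM2 activator. They are 8 of the 927 genes that could be named on the array and were read by 10 of its 1259 probe sets, 3 for ARSB and 1 for each other gene. Every probe set whose RefSeq identifier mapped to one of these symbols was included. The 8 genes were chosen with the log2 differences between the groups on these same arrays already known. Which of the 3 comparisons guided the choice is not recorded, so the members' differences in all 3 are given as a description, with no p-value. Where a member is said to be called, this records only which side of the threshold it took in the fit over all probe sets, and it supports nothing about the members.

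The arrays measured RNA of 2 human intestinal epithelial lines, both derived from colon carcinoma, in a study of how interferon gamma raises a sialylated form of CD44v6 in some such cells. T84 cells were treated with 100 U/ml interferon gamma for 24 hours or left untreated, and Caco-2 cells were left untreated, with 3 arrays in each of the 3 groups. Untreated T84 cells were at passage 68 and Caco-2 cells at passage 37, both at about 90% confluence in 6-well plates, and the labels give neither for the treated T84 cells. The labels give 1 passage for each untreated line, so line and passage cannot be told apart. Nothing in the labels says that the replicates came from separate cultures, so all errors and p-values measure the spread between these arrays, which may be technical.

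Lysosomal glycosidases take sugar chains apart 1 residue at a time from the free end, in an acid compartment that receives glycoproteins, glycosaminoglycans and membrane glycolipids. Sulfatases remove the sulfate groups that would block this trimming, and small activator proteins lift glycolipids out of the membrane so that the soluble enzymes can reach them. Inherited loss of any 1 of these steps causes storage of its substrate. Intestinal epithelial cells carry a heavily glycosylated surface, and the material they take up from it is broken down by this route.

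The promoter windows of the 3 genes with the largest differences between treated and untreated T84 cells, and of ARSB, are shown because they are the stretches in which 2 kinds of motif were looked for. A window runs from 250 bases before to 50 bases after a transcript start. The windows are RefSeq's, on GRCh38.p14, printed 5′ to 3′ on the gene's strand, and capitals mark a motif match.
FUCA1 chr1:23868241-23868540 (minus strand): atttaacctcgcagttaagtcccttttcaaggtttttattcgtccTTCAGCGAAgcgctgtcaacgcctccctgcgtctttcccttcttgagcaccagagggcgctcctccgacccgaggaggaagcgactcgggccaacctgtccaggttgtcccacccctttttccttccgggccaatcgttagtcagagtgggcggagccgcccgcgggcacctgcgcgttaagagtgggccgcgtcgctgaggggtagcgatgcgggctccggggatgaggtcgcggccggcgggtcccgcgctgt
GALC chr14:87993133-87993432 (minus strand): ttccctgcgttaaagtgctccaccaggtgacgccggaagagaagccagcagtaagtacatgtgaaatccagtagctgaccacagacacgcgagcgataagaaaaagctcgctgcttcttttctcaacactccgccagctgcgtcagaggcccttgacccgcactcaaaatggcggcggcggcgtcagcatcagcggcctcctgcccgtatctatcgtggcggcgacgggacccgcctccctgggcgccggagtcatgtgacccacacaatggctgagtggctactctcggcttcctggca
GM2A chr5:151252935-151253234 (plus strand): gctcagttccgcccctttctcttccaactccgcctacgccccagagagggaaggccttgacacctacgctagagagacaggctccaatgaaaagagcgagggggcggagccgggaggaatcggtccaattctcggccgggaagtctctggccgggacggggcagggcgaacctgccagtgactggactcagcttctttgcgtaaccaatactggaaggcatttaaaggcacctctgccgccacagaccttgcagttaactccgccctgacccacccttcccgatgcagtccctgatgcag
ARSB chr5:78985909-78986208 (minus strand): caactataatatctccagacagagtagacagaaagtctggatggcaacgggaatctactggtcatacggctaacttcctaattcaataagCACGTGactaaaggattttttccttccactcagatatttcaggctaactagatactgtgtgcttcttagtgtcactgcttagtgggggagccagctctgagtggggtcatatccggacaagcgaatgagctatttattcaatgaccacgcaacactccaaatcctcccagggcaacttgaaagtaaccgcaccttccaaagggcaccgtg
RefSeq windows were matched by symbol for 6 of the 8 members, 10 windows in all, of which GALC had 4 and ARSB 2; ARSA and MANBA were not among them. The letters TTCNNNGAA, the palindrome known as the interferon gamma activated site, were found in 2 of the 10 windows. One match is the FUCA1 window above, 205 bases before the start, and the other is the second ARSB window, 178 bases before its start. The same letters occur in 7.66% of all 35116 windows of this length. The E-box core CACGTG was in 1 of the 10 windows, the ARSB window above, 160 bases before the start, against 7.26% of all windows. Its longer form TCACGTGA, which contains CACGTG and is bound by TFEB, was in 0 of the 10 and in 0.98% of all windows. All 3 motifs read the same on both strands. A match describes letters only, and no binding was measured.

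Values are log2 signals per probe set, so a difference of 1 is a doubling, and a gene's levels can be compared between arrays but not with those of another gene. In T84 cells treated with interferon gamma, FUCA1, GALC, GM2A and MANBA were lower than in untreated T84 cells by 1.39- to 1.67-fold. GLB1 differed in the same direction by less, and ARSA, AGA and the ARSB probe set with the highest mean differed by at most 0.11 on the log2 scale, and a second ARSB probe set by -0.18 ± 0.10 SE. A linear model over all 9 arrays (limma, Benjamini-Hochberg over 1259 probe sets, threshold 0.05) called 4 of the 8 members lower and 0 higher. Over all probe sets it called 5.8% lower and 4.37% higher, and since the members may have been chosen on this contrast nothing is read from their count. Culture RNA gives an average over all cells, so fewer cells with a transcript and less of it in each cell cannot be told apart.

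FUCA1 encodes alpha-L-fucosidase, which removes fucose from glycoproteins and glycolipids. Its signal was 9.02, 8.98 and 9.07 on the 3 treated T84 arrays, 9.79, 9.53 and 9.78 on the untreated T84 arrays, and 10.18, 9.96 and 9.78 on the Caco-2 arrays. Every treated array was below every untreated one, with 0.46 between the nearest arrays of the groups, while untreated T84 and Caco-2 met at about 9.78. Group means were 9.02 ± 0.04, 9.70 ± 0.15 and 9.97 ± 0.20 (SD, n = 3). The treated group was lower than untreated T84 by 1.60-fold (log2 difference -0.68 ± 0.11 SE, 95% interval -0.92 to -0.43). Of the difference between treated T84 and Caco-2 cells, -0.95 ± 0.11, the step between untreated and treated T84 made up 71.0%. The remaining step, untreated T84 against Caco-2, was -0.28 ± 0.11 (95% interval -0.52 to -0.03) and was not called. It was called lower with array weights, at -0.24, and without Caco-2 replicate 3, at -0.37.

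MANBA encodes beta-mannosidase, which cuts the last mannose from the core of N-linked chains. Its signal was 7.61, 7.51 and 7.40 in treated T84, 7.98, 8.02 and 7.93 in untreated T84 and 8.50, 8.64 and 8.48 in Caco-2. The 3 groups stood in order without overlap, with gaps of 0.32 and 0.45 between neighbours, each wider than the spread within a group. The treated T84 mean was 7.51 ± 0.11 and the untreated 7.98 ± 0.05 (SD, n = 3), a difference of -0.47 ± 0.07 SE. The untreated mean was in turn below the Caco-2 mean of 8.54 ± 0.09 by -0.56 ± 0.07 SE. These steps were of similar size, the first being 45.7% of the whole difference of -1.03 ± 0.07.

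GLB1 encodes beta-galactosidase, which cleaves galactose from GM1 ganglioside and keratan sulfate. It was read by a probe set whose suffix marks sequence shared among transcripts. Its signal was 10.99, 10.86 and 10.91 in treated T84, 11.11, 11.17 and 11.17 in untreated T84 and 12.24, 12.00 and 11.89 in Caco-2. Caco-2 cells were the group that stood apart, 0.72 above the nearest untreated T84 array, whereas the T84 groups were 0.12 apart. The untreated T84 level of GLB1 was 1.86-fold below that of Caco-2 (95% interval 1.62 to 2.13; log2 difference -0.89 ± 0.09 SE). With interferon gamma the difference was -0.23 ± 0.09 (95% interval -0.43 to -0.04) and was not called in the fit of all 9 arrays. It was called without Caco-2 replicate 1, with array weights and with the T84 arrays alone. Over all alternatives, called or not, the difference ran from -0.27 to -0.09.

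GALC encodes galactosylceramidase, which degrades galactosylceramide and psychosine. Its signal was 8.36, 8.13 and 8.20 in treated T84, 8.79, 9.27 and 8.84 in untreated T84 and 8.89, 9.30 and 9.28 in Caco-2. The treated arrays lay below all others, 0.43 under the lowest untreated T84 array, and untreated T84 and Caco-2 overlapped. Of all members it had the treated minus untreated difference furthest below 0, -0.74 ± 0.16 SE (95% interval -1.09 to -0.38), or 1.67-fold lower. Of its difference between treated T84 and Caco-2, -0.93 ± 0.16, the interferon step made up 79.6%. Untreated T84 and Caco-2 differed by -0.19 ± 0.16 (95% interval -0.55 to 0.17). The call with interferon gamma was lost when treated replicate 2 or treated replicate 3 was left out, with the difference at -0.69 and -0.72 respectively.

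AGA encodes aspartylglucosaminidase, which cleaves the bond between asparagine and the first sugar of an N-linked chain, and it was the member called in none of the comparisons. Its signal was 6.69, 6.64 and 6.66 in treated T84, 6.48, 6.98 and 6.57 in untreated T84 and 6.52, 6.49 and 6.64 in Caco-2. The groups overlapped, and the widest spread, 0.27 (SD, n = 3), was among the untreated T84 arrays, where replicate 2 was high. The treated minus untreated difference was -0.01 ± 0.12 (95% interval -0.28 to 0.26), and T84 minus Caco-2 was 0.11 ± 0.12 with and 0.12 ± 0.12 without interferon gamma. The 95% intervals against Caco-2 ran from -0.16 to 0.39 with and from -0.15 to 0.40 without interferon gamma, so differences of those sizes are not excluded by these arrays.

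ARSA encodes arylsulfatase A, which removes sulfate from sulfatide so that GALC can act on the product. Its signal was 6.69, 6.81 and 6.77 in treated T84, 6.57, 6.70 and 6.72 in untreated T84 and 7.62, 7.53 and 7.34 in Caco-2. Both T84 groups lay below every Caco-2 array and overlapped each other. The untreated T84 level was 1.78-fold below that of Caco-2 (95% interval 1.57 to 2.02; log2 difference -0.83 ± 0.08 SE). The treated minus untreated difference was 0.09 ± 0.08 (95% interval -0.09 to 0.27), the only member above 0, and it was not called.

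ARSB encodes arylsulfatase B, which removes sulfate from dermatan and chondroitin sulfate. The probe set with the highest mean read 5.0, 4.80 and 5.16 in treated T84, 5.02, 5.09 and 5.16 in untreated T84 and 6.67, 6.27 and 6.46 in Caco-2. The T84 groups overlapped, and both were at least 1.11 below the lowest Caco-2 array. This was the largest untreated T84 against Caco-2 difference among the members, -1.38 ± 0.12 SE or 2.60-fold lower (95% interval 2.16 to 3.14). A second ARSB probe set, whose suffix marks possible cross-hybridisation, gave a smaller difference of -0.54 ± 0.10, with group means of 4.86 ± 0.08, 5.04 ± 0.02 and 5.57 ± 0.22 (SD, n = 3). The third, designed to another ARSB transcript, gave -0.04 ± 0.07 and read 4.50 ± 0.12, 4.61 ± 0.06 and 4.65 ± 0.08. The ARSB probe sets therefore disagreed in size, and the third showed no called difference in any comparison. Averaged over all 3 probe sets, the untreated T84 minus Caco-2 difference was -0.65.

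GM2A encodes the GM2 activator, a cofactor without enzyme activity of its own that presents GM2 ganglioside to the enzyme that cleaves it. Its signal, from a probe set shared among transcripts, was 9.32, 9.27 and 9.32 in treated T84, 9.94, 9.62 and 10.27 in untreated T84 and 11.37, 11.08 and 10.95 in Caco-2. The groups did not overlap and were ordered treated T84, untreated T84, Caco-2. The treated arrays spread by 0.03 (SD, n = 3) and the untreated T84 arrays by 0.32, where replicate 2 was lowest and replicate 3 highest. Treated against untreated T84 was -0.64 ± 0.16 SE (95% interval -1.01 to -0.27), and untreated T84 against Caco-2 was -1.19 ± 0.16, 2.29-fold lower. Against Caco-2, treated T84 was lower by 3.55-fold (95% interval 2.75 to 4.60), the largest difference of any member. The call with interferon gamma was lost in 11 alternatives: leaving out any treated replicate, untreated replicate 1 or 3, or Caco-2 replicate 2 or 3, using the T84 arrays alone, the replicate block, and centring each array on the mean or on the median of its ribosomal protein genes. The difference in these alternatives stayed below 0, and over all alternatives, called or not, it ran from -0.80 to -0.47.

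**Figure D1:**
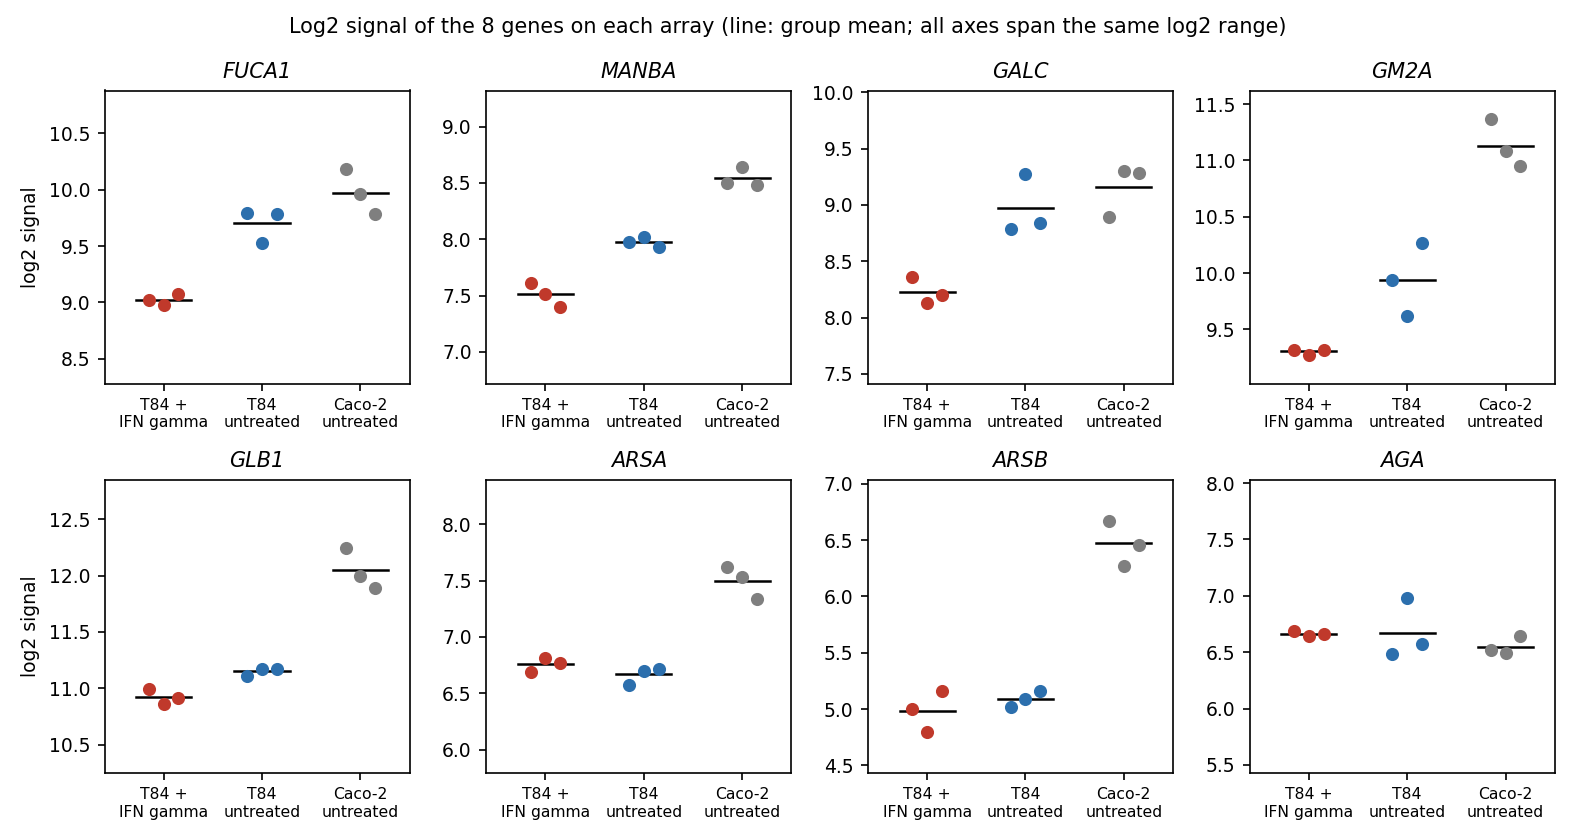
Log2 signal (y axis) of each member on every array, by group (x axis), with 1 point per array and a bar at the group mean. MANBA, FUCA1, GALC, GM2A and, by 0.12, GLB1 have all 3 treated T84 arrays below the untreated T84 arrays. ARSA, ARSB, GLB1, GM2A and MANBA have Caco-2 apart from both T84 groups, and AGA overlaps in all groups.

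Against Caco-2 cells, treated T84 cells had 7 of the 8 members called lower and 0 higher, the exception being AGA. Of all probe sets 26.2% were called lower and 19.4% higher. Untreated T84 cells had 5 members called lower and 0 higher (ARSA, ARSB, GLB1, GM2A and MANBA), where 24.2% of all probe sets were called lower and 19.5% higher. These comparisons share the Caco-2 arrays, and the treated T84 arrays also enter the comparison with untreated T84, so the 3 are not independent of each other. Nothing is read from the members' counts, because the members may have been chosen on any of these contrasts.

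Set side by side, the members differed in how much of their distance from Caco-2 lay between the T84 groups. The share of the treated T84 against Caco-2 difference made up by the interferon step was 79.6% for GALC, 71.0% for FUCA1, 45.7% for MANBA and 34.8% for GM2A. It was 20.8% for GLB1 and 7.1% for ARSB, and for ARSA the step ran against the line difference at -12.2%. AGA had no called difference to divide. The split has no test and depends on the scaling. With each array centred on the mean of its ribosomal protein genes, the untreated T84 minus Caco-2 step of GALC was 0.11 and that of FUCA1 0.02, so the interferon step exceeded their whole difference, and for GLB1 it was -0.09 of -0.69.

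**Figure D2:**
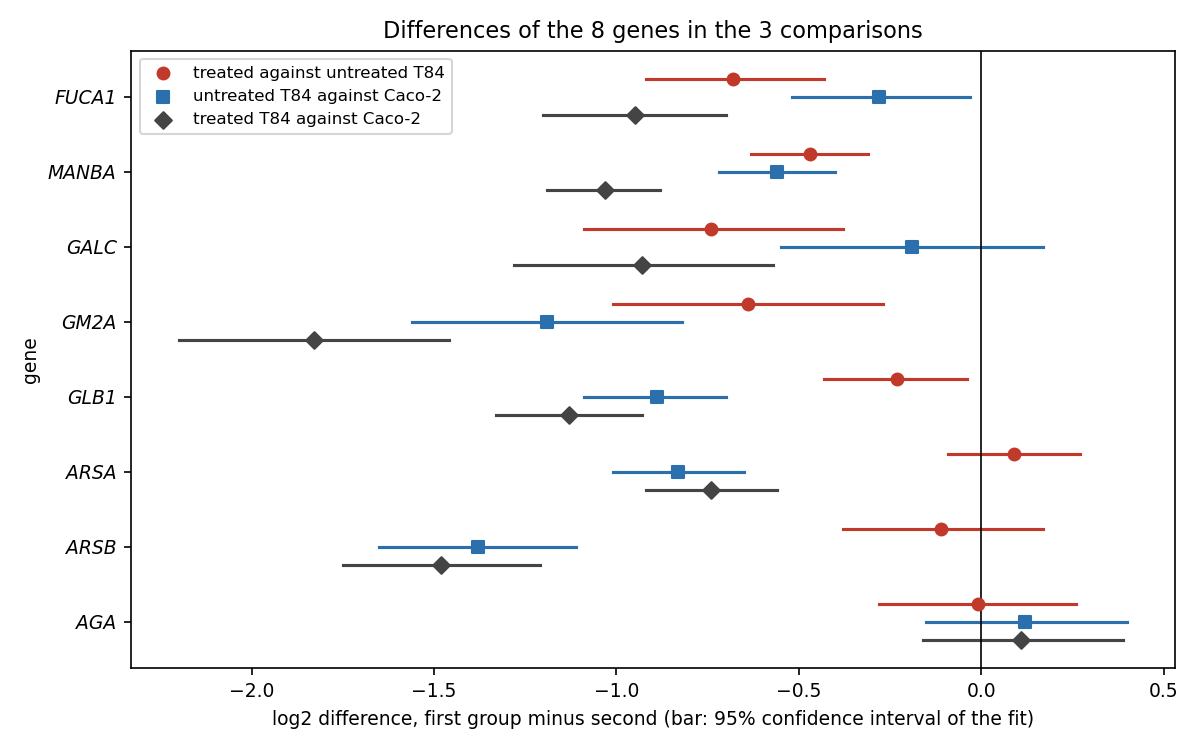
Log2 difference (x axis) of each member (y axis) in the 3 comparisons, with the 95% interval of the limma fit. GALC, FUCA1 and GM2A are furthest below 0 in treated against untreated T84, and ARSB, GM2A and GLB1 in both comparisons with Caco-2.

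**Figure D3:**
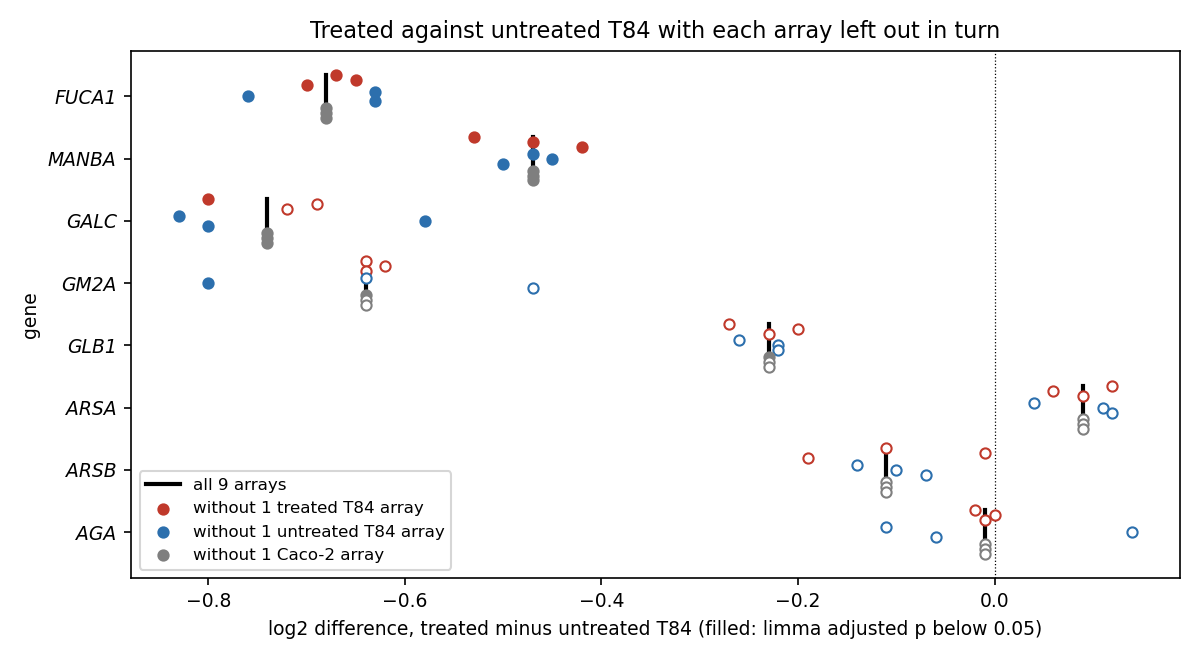
Treated minus untreated T84 log2 difference (x axis) of each member (y axis), with all 9 arrays (black bar) and with each array left out in turn (points); filled points had a limma adjusted p below 0.05. FUCA1 and MANBA points are all filled, GALC has 2 open points and GM2A 2 filled ones, and no point of FUCA1, MANBA, GALC, GM2A or GLB1 reaches 0.

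Of 3 partners of the members in the same pathways, named here after their values were seen, 0 were called with interferon gamma. HEXA, which encodes the alpha subunit of the enzyme that needs GM2A, differed by 0.06 ± 0.09 SE between treated and untreated T84. CTSA, the protective protein that binds GLB1 and NEU1 in a complex, differed by 0.09 ± 0.08. UGT8, which makes the galactosylceramide that GALC degrades, differed by 0.01 ± 0.13. Between untreated T84 and Caco-2, HEXA differed by 0.02 ± 0.09.

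Other lysosomal and sugar-handling genes were read from 4 lists. Of 22 other glycosidases measured, 1 was called higher and 0 lower in treated against untreated T84. Their median was -0.04, beside -0.35 for the members and -0.01 for all probe sets. Nothing is read from the members' median, since they may have been chosen on this contrast. HPSE, heparanase, was the glycosidase called higher, by 1.64-fold (log2 difference 0.71 ± 0.12 SE, limma adjusted p = 0.00745, n = 3 per group). Against Caco-2, 5 of the 22 rose and 6 fell in treated T84, and 6 rose and 5 fell in untreated T84. NEU1, the lysosomal sialidase, was below Caco-2 in treated T84, at a log2 difference of -1.45 ± 0.12 SE (limma adjusted p = 1.28e-05). HPSE was higher in treated T84 than in Caco-2 by 1.63 ± 0.12 SE (limma adjusted p = 8.32e-06). In untreated T84, the log2 differences from Caco-2 were -1.37 ± 0.13 SE for HYAL1, a hyaluronidase, and -1.06 ± 0.12 for NEU1. IDUA, the iduronidase of heparan and dermatan sulfate breakdown, was higher, by 0.81 ± 0.09 SE (adjusted p = 8.29e-05).

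Among 10 other sulfatases and their activating factors, 1 fell and 0 rose with interferon gamma, with a median of -0.14. It was ARSL, a Golgi arylsulfatase, by -0.45 ± 0.11 SE (limma adjusted p = 0.0443, n = 3 per group), a call lost with the replicate block, repeated quantile normalization or either ribosomal centring. It was also lost without treated replicate 1 or 2, any untreated T84 replicate or Caco-2 replicate 2, and its adjusted p ran from 0.00313 to 0.164 over the alternatives. Against Caco-2, 2 rose and 5 fell in both T84 groups. IDS, iduronate-2-sulfatase, was higher in treated T84 by 1.74 ± 0.07 SE (adjusted p = 1.70e-07), and its second probe set gave 1.34 ± 0.31. GALNS, the sulfatase of keratan sulfate, was lower at -1.53 ± 0.13 SE (adjusted p = 1.48e-05). ARSD was higher by 1.79 ± 0.14 SE on the probe set with the highest mean, but its second probe set differed by 0.09 ± 0.05 and was not called. Without interferon gamma the same genes differed from Caco-2 by 1.96 (IDS), -1.42 (GALNS), -1.23 (ARSL) and 2.06 (ARSD) on the log2 scale.

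Of 9 lysosomal helpers, sorting receptors and membrane proteins, 1 rose and 1 fell in treated against untreated T84. LAMP3, a lysosomal membrane glycoprotein, rose 2.25-fold (1.17 ± 0.11 SE, limma adjusted p = 0.000241, n = 3 per group). ASAH1, acid ceramidase, fell by 0.54 on the log2 scale (± 0.11 SE, adjusted p = 0.0168), and its second probe set fell by 0.41 (adjusted p = 0.0113). The ASAH1 call was lost with the replicate block and without treated replicate 2 or 3 or untreated replicate 1 or 3. Over all alternatives, called or not, the difference ran from -0.58 to -0.39. Against Caco-2, LAMP3 was higher by 4.67 ± 0.11 SE in treated and 3.50 ± 0.11 in untreated T84, and ASAH1 was lower at -1.03 ± 0.11 and -0.49 ± 0.11. SLC17A5, which exports free sialic acid from the lysosome, was lower at -1.10 ± 0.12 in treated and -0.71 ± 0.12 in untreated T84. SMPD1, acid sphingomyelinase, was higher than in Caco-2 in treated T84 by 0.39 ± 0.10 SE (limma adjusted p = 0.0141). Its adjusted p reached 0.0529 over the alternatives, and its difference of 0.21 ± 0.10 in untreated T84 was not called. IGF2R, a receptor that sorts enzymes to the lysosome, was higher than in Caco-2 in both T84 groups. The difference was 0.43 ± 0.13 in treated (adjusted p = 0.0272) and 0.72 ± 0.13 in untreated T84 (adjusted p = 0.00235).

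Of 14 genes that synthesise the lipids the members break down, 0 were called in treated against untreated T84, where the median was 0.00. Against Caco-2, 1 rose and 4 fell in either T84 group, among them GAL3ST1, which makes sulfatide, the substrate of ARSA, by -1.02 ± 0.15 SE in treated T84 (adjusted p = 0.000529). GBGT1 and B3GALNT1, glycosyltransferases of the globo-series lipids, differed by -0.67 ± 0.08 and -0.92 ± 0.15 in treated and -0.66 ± 0.08 and -0.96 ± 0.15 in untreated T84. B4GALT5, a lactosylceramide synthase, differed from Caco-2 by -0.36 ± 0.09 SE in treated T84 (limma adjusted p = 0.0131). In untreated T84 it differed from Caco-2 by -0.34 ± 0.09 (adjusted p = 0.0192). Its treated minus untreated T84 difference was -0.02 ± 0.09 and was not called. With ribosomal centring the treated T84 against Caco-2 difference was 0.08. B3GALT4, which makes GM1, a substrate of GLB1, was higher than in Caco-2 in both T84 groups. The difference was 0.55 ± 0.11 SE in untreated T84 (limma adjusted p = 0.00397) and 0.40 ± 0.11 in treated T84 (adjusted p = 0.0179).

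**Figure D4:**
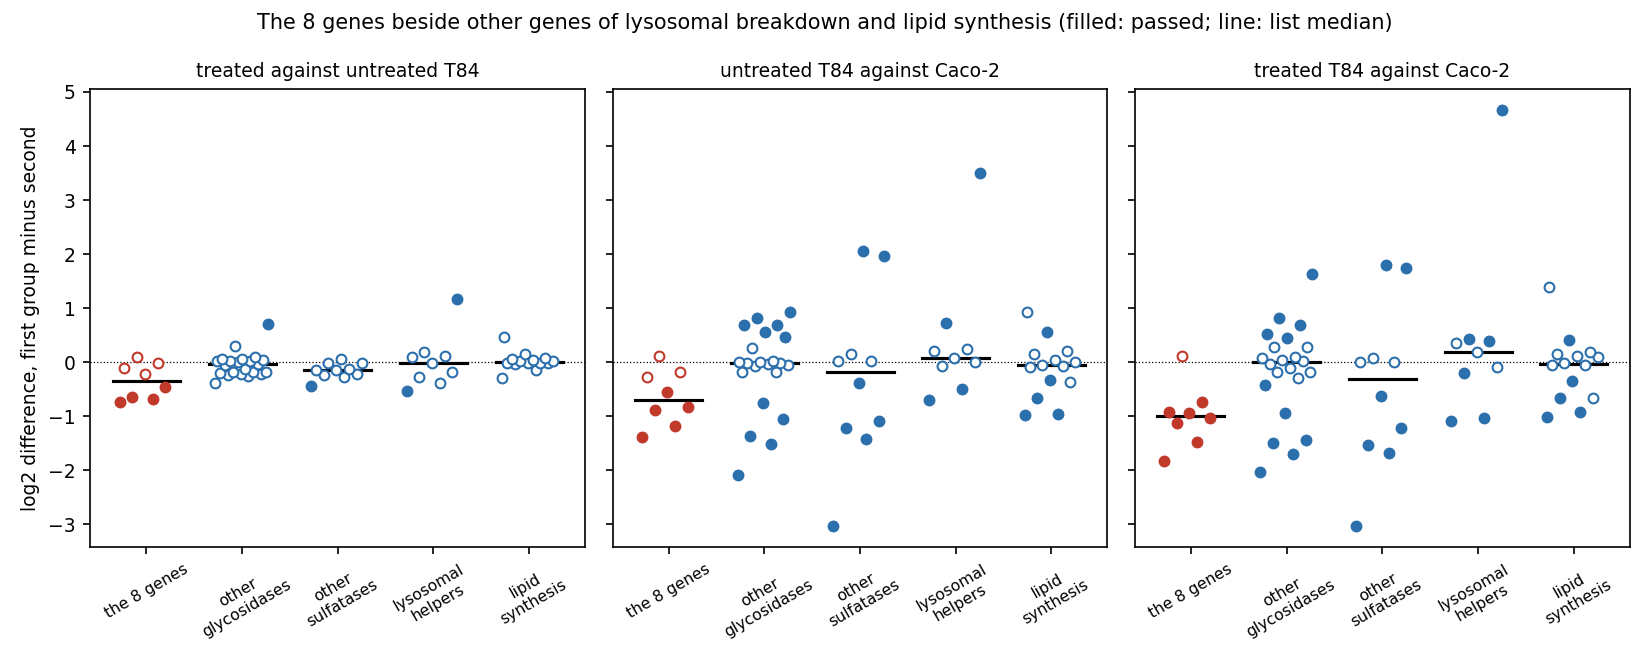
Log2 difference (y axis) of each gene of the members and the 4 other lists (x axis), 1 panel per comparison, each gene a point (filled where the limma adjusted p is below 0.05) and the median a bar. With interferon gamma the other lists sit about 0, at medians from -0.14 to 0.00, and the members at -0.35. Nothing is read from this distance, since the members may have been chosen on this contrast.

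Genes with the most similar profile were found by the root mean square difference of log2 signals over the 9 arrays, after each gene's own mean was subtracted. NDST1 and BPHL were nearest to GLB1 at 0.076 and 0.080, PGM1 and MGAT3 to FUCA1 at 0.088 and 0.143, and ASAH1 and RPL13A to MANBA at 0.106 and 0.111. B4GAT1 and ARSL were nearest to GM2A at 0.128 and 0.151, ASGR1 and HDLBP to ARSB at 0.102 and 0.108, and RPN2 and XCL2 to ARSA at 0.099 and 0.100. ASAH1 was also nearest to GALC, at 0.191, and RPL17, a ribosomal protein gene, was next outside the members, at 0.239. For AGA, which varied little between groups, the nearest was UGT2A1 at 0.085. The nearest members of each other were GLB1 and MANBA, at 0.177.

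Some arrays and other genes moved with these results. Caco-2 replicate 1 was the highest of its group for 5 of the 8 members, at a median deviation of 0.16 against 0.05 over all probe sets, and Caco-2 replicate 3 was the lowest for 5, at -0.11 against -0.05. Treated T84 replicate 2 was the lowest of its group for 6 members, at -0.04, and untreated T84 replicate 1 for 5, at -0.06. Without treated replicate 2 the count of members called with interferon gamma was 2, FUCA1 and MANBA, as it was without treated replicate 3, and without untreated replicate 1 it was 3. Without Caco-2 replicate 1 the counts of members called lower against Caco-2 stayed at 7 (treated T84) and 5 (untreated T84), and GM2A in treated T84 minus Caco-2 was -1.71. Ribosomal protein genes, 41 measured, were also lower in T84 than in Caco-2, with 29 lower and 2 higher in treated T84 and a median of -0.28. With interferon gamma 5 of them were lower and 0 higher, with a median of -0.09, and their part in the members' differences was not tested. Centring each array on the mean of these genes gave 231 higher and 50 lower probe sets called with interferon gamma, where the deposited values gave 55 and 73. Against Caco-2 it gave 911 and 180 in treated T84 and 843 and 190 in untreated T84, where the deposited values gave 244 and 330, and 245 and 305. It moved the median of all probe sets by 0.14, 0.44 and 0.30, and brought the uncalled untreated T84 against Caco-2 differences of FUCA1 and GALC to 0.02 and 0.11. Centring on the median ribosomal protein gene instead gave splits of 54 and 43, 779 and 220, and 680 and 214, in the same order.

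The arrays' medians ran from 6.70 to 6.80. Of 17 markers of intestinal epithelium 5 were measured, EPCAM, CDH1, VIL1 and the keratins not being among them. LGALS4 was 13.01 in untreated T84, 12.47 in treated T84 and 6.91 in Caco-2, and the mean of the 5 was 9.81 to 10.02 over the T84 arrays and 7.16 to 7.54 over the Caco-2 arrays. Of 16 leukocyte markers 0 were called in treated against untreated T84, with array means from 5.53 to 5.66 over all 9 arrays. Against Caco-2, 2 of the leukocyte markers were called higher and 1 lower in each T84 group. Of 11 fibroblast and endothelial markers 5 were lower in each T84 group than in Caco-2, with array means of 5.08 to 5.14 in T84 and 5.38 to 5.57 in Caco-2, and the part of these in the members' differences was not tested.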

How the data were processed

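Total RNA was labelled as biotinylated cRNA from 0.5 ug and hybridised to single-colour Affymetrix arrays, per the labels' protocols. The authors deposited log2 signals per probe set, summarised by RMA per the submitters' processing notes. Neither its version nor a genome build is given in the sources used here. No further normalization was applied. RefSeq identifiers were matched to symbols without their version, naming 1043 of 1259 probe sets. A gene with several probe sets was represented by that with the highest mean over all arrays, and all probe sets of a member are shown.

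Groups came from the labels. One linear model over all 9 arrays was fitted with limma 3.58.1 in R 4.3.3 (6 residual and 2.12 prior degrees of freedom), p-values adjusted by Benjamini-Hochberg over all 1259 probe sets and called at 0.05. Simulated arrays had independent errors and no difference between the lines. In them, 53.4% of log2 changes of 0.25 and 82.2% of 0.5 between treated and untreated T84 were called, and 4.6% of calls were false. The comparisons with Caco-2 were not simulated, and real arrays may differ from these settings. Errors of means are standard deviations, errors of differences are standard errors and intervals are at 95%. The number of arrays limits the precision.

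The members and gene lists were chosen with earlier results of these data known. Named were all members, up to 4 genes per other list and comparison with the smallest adjusted p past the threshold, and the 2 named genes most like each member. Some genes that this rule names are not reported here. Other genes named were chosen after their values were seen. Alternatives changed the arrays, weights, centring, filter, threshold, probe set rule and replicate block; a second ribosomal centring was chosen after seeing the data. Tables were written with pandas 2.3.3 and figures with matplotlib 3.10.9.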

Additional observations from a re-analysis of the deposited data

How the results depend on the processing

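FUCA1 and MANBA kept their direction and their call with interferon gamma in every alternative fit, except that MANBA is under the 1.5-fold limit. Over 456 alternatives of the members' differences, 38 moved by over 1 SD and 0 called differences reversed. The count of probe sets called with interferon gamma was 231 with array weights, 281 with ribosomal centring, 79 at an adjusted p below 0.01 and 66 at 1.5-fold or more. For treated T84 against Caco-2 it was 1091 with ribosomal centring, 999 with the added median centring and 344 at 1.5-fold, and for untreated T84 against Caco-2 it was 1033, 894 and 312. Members called with interferon gamma fell to 2 at 0.01. With only probe sets read by 1 gene, 3 members counted as called in untreated T84 against Caco-2. GLB1 and GM2A, read by shared probe sets, left that count without a new fit, so this was no loss of their calls. Leaving out each array gave 2 to 5 members with interferon gamma, 7 to 7 in treated T84 against Caco-2 and 5 to 6 in untreated T84 against Caco-2. The probe sets called then ran from 86 to 178, 521 to 640 and 480 to 600. Of 682 alternatives of other named genes, 660 kept direction and call, 21 lost the call and 1 reversed, B4GALT5 in treated T84 against Caco-2, at 0.08 with ribosomal centring. The cause of these changes was not tested. AGA was called higher in treated T84 than in Caco-2 with both ribosomal centrings, at 0.56 and 0.38, and in untreated T84 with the mean ribosomal centring, at 0.42.

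Whether the replicate numbers pair the arrays is not known from the labels. Deviations of same-numbered treated and untreated T84 arrays correlated at 0.39, -0.02 and 0.56. Those of treated T84 and Caco-2 correlated at -0.44, -0.04 and -0.32, and those of untreated T84 and Caco-2 at -0.64, 0.47 and -0.64. Deviations within a group of 3 arrays depend on each other, so these correlations cannot decide whether the arrays are paired. With the replicate block 3, 7 and 5 members and 109, 534 and 499 probe sets were called in the 3 comparisons.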
